A study of Mus musculus with 9 samples.

Results

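The genes described are 8 that carry 3 vasoactive systems of the vessel wall: Agt, Ace, Agtr1a and Agtr2 of the angiotensin system, Edn1, Ece1 and Ednra of the endothelin system, and Nos3 of nitric oxide synthesis. They were taken by gene symbol from a table of 32671 genes in whole mouse lung. Of the 8 genes, 7 passed the filter on low counts and were among the 20794 genes tested; Agtr2 did not. The data are 9 poly(A) RNA libraries, 3 from each of 3 groups of C57BL/6 mice labelled WT, all taken at day 21. LNP mice were challenged with bleomycin, a DNA-damaging drug that scars the lung, and then given inhalable lipid nanoparticles labelled mCas9/gSting@DOPS, which pair the Cas9 nuclease with a guide named for Sting. Bleomycin mice received the drug without the particles, and control mice received saline. LNP and bleomycin mice thus share the bleomycin challenge, and no group with particles of another cargo was analysed here. Whether replicates come from different animals is not stated in the labels, and the tests therefore reflect variation among libraries that may be technical.

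Angiotensinogen, the product of Agt, is cut by renin and then by angiotensin-converting enzyme (ACE) to angiotensin II, which constricts vessels and promotes matrix deposition through its main receptor. Lung capillary endothelium carries much of the body's ACE on its surface. Endothelial cells also release endothelin, a strong constrictor that a converting enzyme cuts from a larger precursor, and nitric oxide, a dilator that acts through soluble guanylate cyclase in smooth muscle.

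Edn1, Ace and Ece1 are shown by the DNA in front of their transcription starts. Edn1 is the member with the largest called change, and most counts of Ace and Ece1 fall on one of several alternative starts. The windows hold the 250 bases before a start, from RefSeq on GRCm38.p6, each 5′ to 3′ on the plus strand, which is the strand of all 3 genes. Capitals mark matches, on either strand, to 6 motifs searched for: the TATA box read as TATAAA, the site of GATA factors read as GATAA, the AP-1 site read as TGANTCA, the cyclic AMP response element read as TGANNTCA, the site of KLF factors read as CACCC, and the hypoxia response element read as ACGTG.
Edn1, chr13:42301226-42301475: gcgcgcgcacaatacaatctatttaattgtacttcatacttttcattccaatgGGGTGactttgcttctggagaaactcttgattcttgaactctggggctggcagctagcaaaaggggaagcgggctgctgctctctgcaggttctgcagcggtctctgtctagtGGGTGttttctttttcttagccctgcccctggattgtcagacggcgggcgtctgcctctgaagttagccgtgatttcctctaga
Ace, somatic start, chr11:105967698-105967947: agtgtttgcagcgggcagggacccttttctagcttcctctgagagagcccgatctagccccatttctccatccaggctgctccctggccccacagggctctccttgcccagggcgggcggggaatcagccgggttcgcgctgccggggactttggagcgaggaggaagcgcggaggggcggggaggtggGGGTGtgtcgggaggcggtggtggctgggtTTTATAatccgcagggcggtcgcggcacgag
Ace, inner start, chr11:105974939-105975188: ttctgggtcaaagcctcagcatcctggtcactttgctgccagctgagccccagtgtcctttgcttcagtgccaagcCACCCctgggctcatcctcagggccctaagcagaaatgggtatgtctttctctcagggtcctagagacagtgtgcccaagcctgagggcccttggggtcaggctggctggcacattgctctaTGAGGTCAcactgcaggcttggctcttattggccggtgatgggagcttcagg
Ece1, outer start, chr4:137861987-137862236: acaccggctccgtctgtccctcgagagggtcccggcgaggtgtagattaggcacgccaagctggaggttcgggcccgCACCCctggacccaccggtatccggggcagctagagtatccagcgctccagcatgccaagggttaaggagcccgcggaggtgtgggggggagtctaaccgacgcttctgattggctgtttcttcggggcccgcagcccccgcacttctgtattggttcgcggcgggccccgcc
Ece1, inner start, chr4:137913308-137913557: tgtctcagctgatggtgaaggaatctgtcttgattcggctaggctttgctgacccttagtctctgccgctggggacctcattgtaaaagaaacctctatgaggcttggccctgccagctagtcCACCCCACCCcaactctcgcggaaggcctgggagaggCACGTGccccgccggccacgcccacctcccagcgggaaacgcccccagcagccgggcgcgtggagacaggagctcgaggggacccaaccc
The Edn1 window held CACCC at 2 places on the minus strand, and the window of the outer Ece1 start held it once on the plus strand. Of 32851 mouse promoter windows of this length, 52.0% hold CACCC. The somatic Ace window held TATAAA on the minus strand, 31 to 26 bases before the start, letters found in 12.4% of windows. TGANNTCA, found in 11.9% of windows, lay 52 to 45 bases before the inner Ace start, which serves the testis form of the enzyme. ACGTG, found in 16.6% of windows, matched both strands at 1 place before the inner Ece1 start, where the matches overlap as CACGTG. These matches describe the letters only. RefSeq windows were at hand for 6 of the 8 members.

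Edn1, which encodes the endothelin precursor, had 16.8, 19.1 and 29.6 CPM (counts scaled to library size) in LNP lungs, 62.5, 56.9 and 54.0 CPM in bleomycin lungs, and 26.7, 24.5 and 23.1 CPM in control lungs. Every bleomycin library lay above every library of the other groups, while LNP and control libraries overlapped. Edn1 was 2.65-fold lower in LNP than in bleomycin lungs, a log2 change of -1.40 ± 0.20 (SE, 95% interval -1.86 to -0.95) and passed edgeR's quasi-likelihood test, the source of every adjusted p below (adjusted p = 0.00859). It was 2.33-fold higher in bleomycin than in control lungs (log2 1.22 ± 0.20, adjusted p = 0.00186). Against control, Edn1 in LNP lungs gave a log2 change of -0.18 ± 0.20 with an interval of -0.63 to 0.26. Both calls held under all 18 alternative settings, with adjusted p-values up to 0.0490 against bleomycin and up to 0.0114 for the rise over control. The comparisons share their bleomycin libraries, so their opposite signs are not separate evidence. In bulk tissue, fewer cells of a type and less RNA per cell cannot be told apart.

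**Figure D1:**
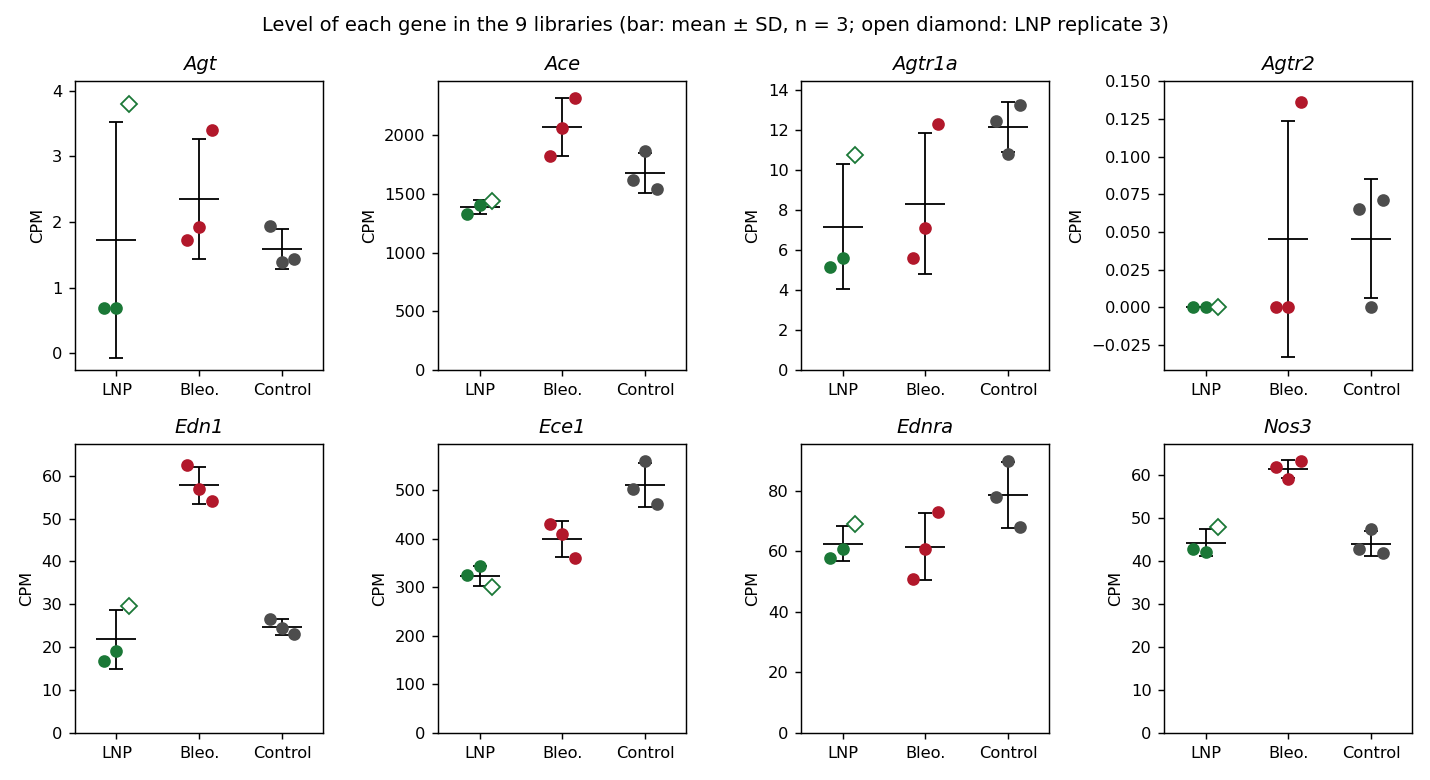
CPM (linear axis, TMM-scaled library sizes) of the 8 members in LNP, bleomycin and control libraries; filled points and the open diamond (LNP replicate 3) are single libraries, and bars are the mean ± SD of 3 libraries. Edn1 and Nos3 stand highest in bleomycin lungs, Ece1 is ordered LNP, bleomycin, control without overlap, and Agtr2 does not exceed 0.136 CPM.

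Ece1, the endothelin-converting enzyme that releases the active peptide, had 324, 344 and 301 CPM in LNP lungs, 430.4, 409 and 359 CPM in bleomycin lungs, and 501, 559.5 and 471 CPM in control lungs. No pair of groups overlapped, with LNP lowest and control highest. The fall in LNP against control lungs passed the test, 1.58-fold or log2 -0.66 ± 0.13 (interval -0.95 to -0.37, adjusted p = 0.0142). It passed in 16 of 18 alternatives, and leaving out control replicate 1 ended the call (adjusted p = 0.0542, over a range of 0.000199 to 0.0583). The log2 change of Ece1 in bleomycin against control lungs was -0.35 ± 0.13 (adjusted p = 0.0605) and passed in 5 of 18 alternatives over a range of 0.0101 to 0.183. These were the fit without LNP replicate 3 (-0.32, adjusted p = 0.0408), library totals alone (-0.42, 0.0149) and the 3 limma settings on log2 FPKM (-0.42 each, 0.0101 to 0.0122). In LNP against bleomycin lungs it was -0.31 ± 0.13 (interval -0.60 to -0.02, adjusted p = 0.177). In bleomycin lungs Edn1 thus lay above control and Ece1 below it, the Ece1 difference passing only in those 5 settings.

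Ednra, the endothelin receptor of smooth muscle and fibroblasts, had 57.7, 60.8 and 68.8 CPM in LNP lungs, 51.0, 60.6 and 72.8 CPM in bleomycin lungs, and 78.0, 89.8 and 68.0 CPM in control lungs. The groups overlapped in every comparison. Its log2 change was 0.02 ± 0.16 in LNP against bleomycin lungs, with an interval of -0.34 to 0.39. Against control it was -0.33 ± 0.16 in LNP lungs (interval -0.70 to 0.03) and -0.35 ± 0.16 in bleomycin lungs (interval -0.72 to 0.01). None of the 3 passed, with adjusted p-values of 0.953, 0.251 and 0.120.

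Ace, which encodes ACE, had 1327, 1402 and 1443 CPM in LNP lungs, 1819.6, 2061 and 2315 CPM in bleomycin lungs, and 1621, 1864 and 1538 CPM in control lungs. The LNP libraries lay below all 6 others, and bleomycin and control libraries overlapped. Ace was 1.49-fold lower in LNP than in bleomycin lungs (log2 -0.57 ± 0.14, interval -0.89 to -0.25, adjusted p = 0.0463), which passed narrowly. It passed in 4 of 18 alternatives, with adjusted p-values of 0.00217 to 0.157. Leaving out 1 library ended the call for control replicate 1 (adjusted p = 0.0798) or 3 (0.0683), bleomycin replicate 1 (0.0854), 2 (0.154) or 3 (0.116), and LNP replicate 1 (0.157) or 2 (0.131). The sign stayed negative throughout, at log2 -0.65 to -0.48. Ace did not pass in LNP against control lungs (log2 -0.27 ± 0.14, adjusted p = 0.289) or in bleomycin against control lungs (0.30 ± 0.14, adjusted p = 0.126).

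Agt, the angiotensin precursor gene that liver expresses most, was low in lung: 0.694, 0.687 and 3.80 CPM in LNP lungs, 1.72, 1.92 and 3.40 CPM in bleomycin lungs, and 1.94, 1.39 and 1.43 CPM in control lungs. LNP replicate 3 was above every other library and the remaining LNP libraries below all of them. With all libraries Agt gave a log2 change of -0.45 ± 0.63 in LNP against bleomycin lungs (adjusted p = 0.712). Without LNP replicate 3 that change was -1.76 with an adjusted p of 0.00903, over a range of 0.00903 to 0.972 across the alternatives. In bleomycin against control lungs it was 0.56 ± 0.63 (adjusted p = 0.519). In LNP against control lungs it was 0.12 ± 0.63 (adjusted p = 0.937), and -1.16 without LNP replicate 3 (adjusted p = 0.0827); its sign also turned with all libraries kept, under the replicate block and the limma settings.

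Agtr1a, the main angiotensin II receptor gene of the mouse, had 5.16, 5.58 and 10.7 CPM in LNP lungs, 5.59, 7.08 and 12.3 CPM in bleomycin lungs, and 12.4, 10.8 and 13.3 CPM in control lungs. Both bleomycin-challenged groups held 1 library near the control level, and only LNP and control libraries did not overlap. The log2 change was -0.76 ± 0.35 in LNP against control lungs (interval -1.54 to 0.01, adjusted p = 0.216). It passed only without LNP replicate 3, at -1.14 with an adjusted p of 0.0413, over a range of 0.0413 to 0.405. In bleomycin against control lungs it was -0.55 ± 0.35 (adjusted p = 0.248), and in LNP against bleomycin lungs -0.22 ± 0.35 (adjusted p = 0.753). The last change turned to 0.18 without bleomycin replicate 3. Reads may be split with its near-identical paralog Agtr1b, which had at most 0.360 CPM in any library.

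Agtr2, the second angiotensin II receptor gene, had 0 counts in each LNP library, 0, 0 and 9 counts in bleomycin libraries, and 4, 0 and 5 counts in control libraries. The 0 of 182993568 LNP counts allows up to 0.0164 CPM by counting error alone (3 counts over the group). Means were 0.0453 CPM in bleomycin and 0.0456 CPM in control lungs, with 0 counts in some libraries of each group. Agtr2 failed the count filter and is not among the genes tested, so no difference between groups is given.

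Nos3, the endothelial nitric oxide synthase, had 42.6, 42.1 and 47.8 CPM in LNP lungs, 61.8, 58.9 and 63.1 CPM in bleomycin lungs, and 42.7, 47.3 and 41.9 CPM in control lungs. Bleomycin libraries stood above all others, as for Edn1, and LNP and control libraries overlapped. Nos3 was 1.39-fold higher in bleomycin than in control lungs (log2 0.48 ± 0.11, adjusted p = 0.0105), a call kept in all 18 alternatives with adjusted p-values up to 0.0450. In LNP against bleomycin lungs it was 1.39-fold lower (log2 -0.47 ± 0.11, interval -0.73 to -0.22, adjusted p = 0.0416), a call kept in 4 of 18 alternatives over a range of 0.00331 to 0.157. That call ended without control replicate 1 (adjusted p = 0.0742) or 3 (0.0705), bleomycin replicate 1 (0.139), 2 (0.134) or 3 (0.0969), and LNP replicate 1 (0.157) or 2 (0.149). In LNP against control lungs the log2 change was 0.01 ± 0.11 (interval -0.25 to 0.26, adjusted p = 0.981), with its sign turned to between -0.03 and -0.01 without control replicate 1 or 3 or LNP replicate 3.

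**Figure D2:**
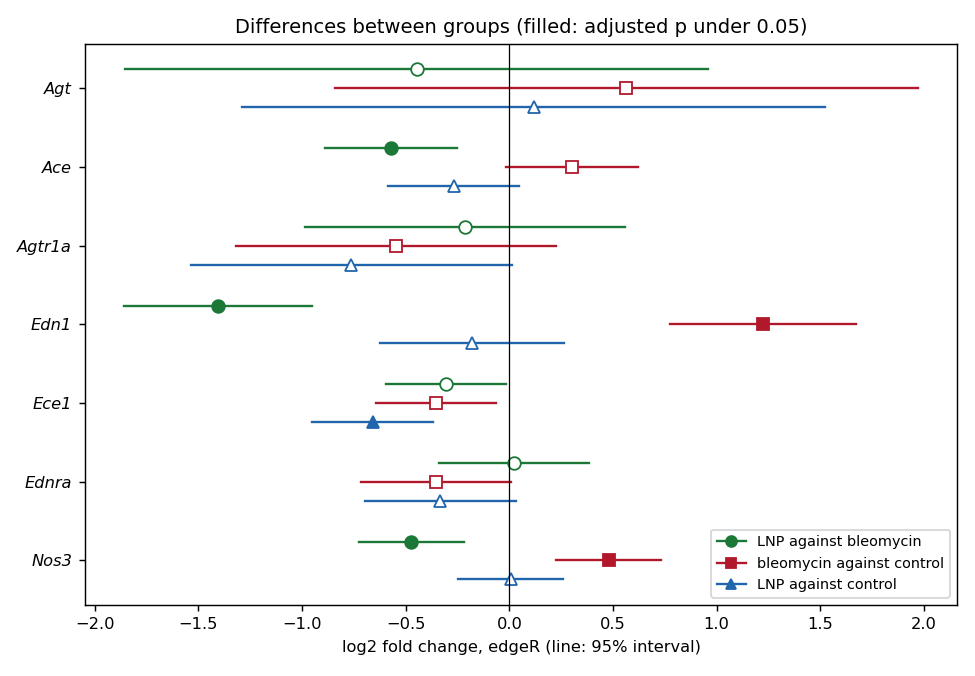
Log2 fold changes of the 7 tested members in LNP against bleomycin, bleomycin against control and LNP against control lungs, with 95% intervals from edgeR; filled points passed an adjusted p of 0.05. Edn1 has the largest change, at -1.40 against bleomycin and 1.22 for bleomycin against control, and Agt the widest intervals.

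Counted over the tested members, 0 were called higher and 3 lower in LNP than in bleomycin lungs (Edn1, Ace and Nos3), where 6.16% of all tested genes were called, 4.28% higher and 1.87% lower. In bleomycin against control lungs 2 were called higher (Edn1 and Nos3) and 0 lower, where 33.7% of all genes were called, 15.2% higher and 18.5% lower. These 2 of 7 members are not above the share of all genes. In LNP against control lungs 0 were called higher and 1 lower (Ece1), where 8.04% of all genes were called, 4.95% higher and 3.08% lower. Members whose groups did not overlap numbered 4 for LNP against bleomycin (29.9% of all genes), 3 in the bleomycin and control pair (55.5%) and 3 in the LNP and control pair (28.8%). The members' median log2 change was -0.45, 0.30 and -0.27 in these comparisons, beside medians of 0.04, -0.05 and 0.00 over all genes. The LNP against bleomycin count was 1 when control replicate 1 or 3, LNP replicate 1 or 2 or any bleomycin library was left out, and 4 without LNP replicate 3. The LNP against control count was 0 without control replicate 1 and 2 without LNP replicate 3.

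Levels between genes were set side by side in FPKM, the deposited unit per length. Ace led in every group, at 251 ± 8.97 FPKM in LNP, 344 ± 56.8 in bleomycin and 291 ± 16.8 in control lungs (SD, n = 3), which is rank 164, 118 and 120 among all genes. Ece1 followed at 58.2 ± 4.59, 66.0 ± 3.51 and 88.4 ± 4.18 FPKM in the same groups. Edn1, Ednra and Nos3 stood next, at 9.70 ± 2.89, 10.9 ± 0.866 and 10.2 ± 0.586 FPKM in LNP lungs, within their spread of each other. In bleomycin lungs the 3 separated, with Edn1 at 23.7 ± 0.649, Nos3 at 13.03 ± 0.822 and Ednra at 9.91 ± 2.21 FPKM. In control lungs they were 10.7 ± 0.923, 9.77 ± 0.216 and 13.2 ± 1.31 FPKM for Edn1, Nos3 and Ednra. Agtr1a stayed between 2.44 and 4.02 FPKM and Agt between 0.768 and 1.10 FPKM in group means.

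The transcript table splits reads between overlapping models and is described without a test. Ace-201, from the somatic Ace start, made up 94.1% ± 1.15 of Ace counts in LNP, 95.8% ± 0.156 in bleomycin and 94.8% ± 0.837 in control libraries (SD, n = 3). Ace-203, annotated to begin 3375 bases from the somatic start, held 4.97% over all libraries. The testis form Ace-202, from the inner start shown above, had 20 to 47 counts per LNP library, 13 to 28 per bleomycin library and 23 to 50 per control library, against at least 78981 for Ace-201. Ece1-201, from the outer Ece1 start, held 99.8% of Ece1 counts over all libraries. Ece1-204 is annotated to begin 87 bases before the inner RefSeq start. That position lies within the CACGTG, so these letters are not in front of this transcript. Ece1-204 held 0.117% ± 0.130 in LNP, 0.256% ± 0.0269 in bleomycin and 0.0333% ± 0.0451 in control libraries. Bleomycin and control libraries did not overlap in that share, and it rests on at most 75 counts in a library. Edn1 had 1 transcript, Edn1-201.

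The same genes were set against 13 endothelial markers, because Ace, Ece1, Edn1 and Nos3 are expressed by endothelium. The summed marker level was 2985 to 5225 CPM in LNP, 4246 to 4595 CPM in bleomycin and 6838 to 7710 CPM in control libraries. Markers called higher and lower numbered 0 and 0 in LNP against bleomycin, 0 and 8 in bleomycin against control, and 0 and 3 in LNP against control lungs; the lowest sum was in LNP replicate 3. Of 8 capillary markers, which share Kdr with that list, 7 were called lower and 1 higher in bleomycin than in control lungs. In LNP against control lungs 2 were called lower, and in LNP against bleomycin lungs 1. Gpihbp1, which anchors lipoprotein lipase on capillaries, was the 1 higher in bleomycin and the 1 lower in LNP against bleomycin lungs, with means of 198 CPM in LNP, 361 CPM in bleomycin and 194 CPM in control lungs. Per 1000 endothelial marker counts, Edn1 stood at 3.21, 3.98 and 9.91 in LNP, 13.6, 13.1 and 12.7 in bleomycin, and 3.85, 3.17 and 3.38 in control libraries. On this scale too the bleomycin libraries were above all others. Ece1 stood at 62.0, 71.5 and 101 in LNP, 93.7, 94.4 and 84.6 in bleomycin, and 72.2, 72.6 and 68.8 in control libraries, so that bleomycin was above control here and below it in CPM. Nos3 and Ace were likewise above control in every bleomycin library, at 13.5 to 14.9 against 6.12 to 6.15 for Nos3 and 396 to 545 against 225 to 242 for Ace. In LNP replicate 3, Nos3 reached 16.0 and Ace 483, and LNP and bleomycin libraries overlapped for Nos3, Ace and Ece1. The part of endothelial content in the members' changes was not tested.

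**Figure D3:**
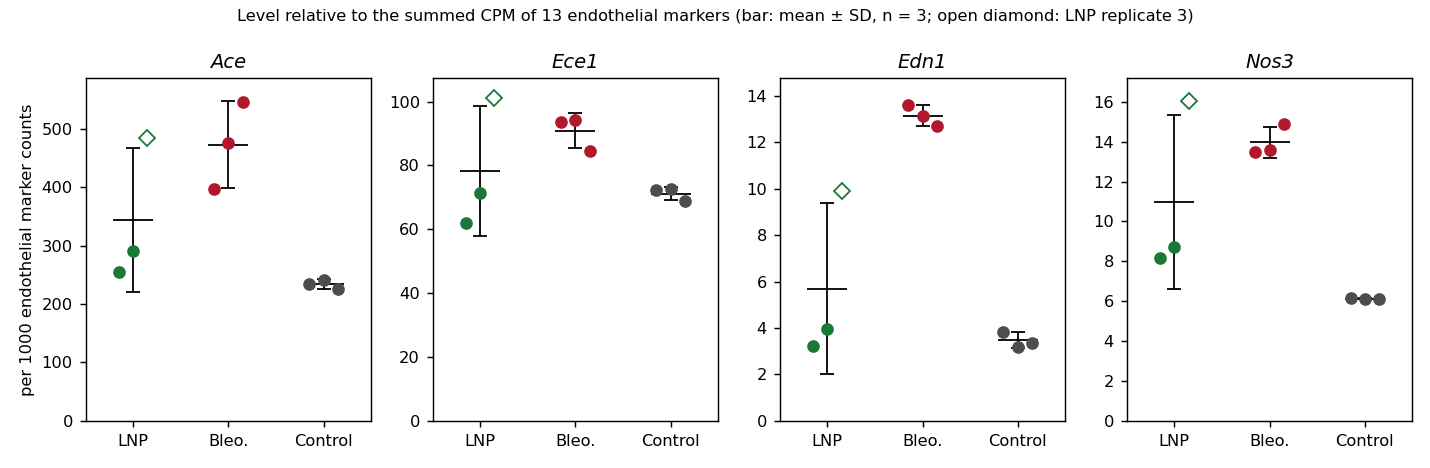
Level of Ace, Ece1, Edn1 and Nos3 per 1000 summed counts of 13 endothelial markers (linear axes) in LNP, bleomycin and control libraries, with LNP replicate 3 as an open diamond and bars for the mean ± SD of 3 libraries. Edn1 is 12.7 to 13.6 in bleomycin libraries and at most 9.91 in the others, and LNP replicate 3 lies apart from the other LNP libraries for all 4 genes.

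LNP replicate 3 also differed in other markers. Skeletal muscle Acta1 was at 3447 CPM there and at most 2.37 CPM elsewhere, and squamous Krt4 at 767 CPM and at most 3.89 CPM elsewhere. All 6 macrophage markers were called higher in LNP and in bleomycin lungs than in control lungs. In LNP against bleomycin lungs 2 of them were called lower, Spp1 (mean 1945 CPM in LNP and 4829 CPM in bleomycin lungs) and Mrc1 (78.9 and 180.3 CPM in the same groups), and the other 4 were not called. Alveolar type 2 markers were 6424 to 19575 CPM in LNP, 7698 to 9042 CPM in bleomycin and 20838 to 28243 CPM in control libraries. Of 8 smooth muscle markers, which bear on Ednra and Agtr1a, 4 were called lower in LNP than in control lungs and the same 4 in bleomycin than in control lungs, with 0 called in LNP against bleomycin lungs. They were Myh11 (mean 109 CPM in LNP, 137 in bleomycin and 268 in control lungs), Cnn1 (48.1, 65.7 and 134 CPM), Lmod1 (12.6, 10.9 and 31.1 CPM) and Mylk (165, 147 and 286 CPM). The other 4, Acta2, Tagln, Des and Actg2, were not called. In bleomycin against control lungs their log2 changes were positive, at 0.43, 0.53, 0.21 and 0.17. In LNP against control lungs they were -0.46, -0.24, 0.74 and -0.34. The part of smooth muscle in the lower Ednra and Agtr1a values was not tested. The summed level of all 8 was 1177.9, 1079.7 and 2592 CPM in LNP, 1907 to 2099 CPM in bleomycin and 1701 to 2147 CPM in control libraries. Des alone was at 1292 CPM in LNP replicate 3, and at 239 and 240 CPM in LNP replicates 1 and 2. Sting1, the gene named by the guide, had 51.8, 62.0 and 44.3 CPM in LNP, 53.8, 41.5 and 40.5 CPM in bleomycin, and 18.4, 23.9 and 20.9 CPM in control libraries, with an adjusted p of 0.477 in LNP against bleomycin lungs. A count of a gene's RNA does not measure editing.

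The wider systems were read from 39 other genes, 16 of the angiotensin, 4 of the endothelin and 19 of the nitric oxide system, of which 36 were tested; Ren1, Mas1 and Edn2 were too low. In bleomycin against control lungs 4 were called higher and 11 lower, which is 15 of 36 where 33.7% of all genes were called. Of 14 tested angiotensin genes, 6 were called lower in bleomycin lungs and 0 higher, where 18.5% and 15.2% of all genes were called. The other 8 had log2 changes of -3.53 to 0.53. Among the 6 were the peptidases Enpep (log2 -2.07 ± 0.41), Anpep (-1.42 ± 0.23) and Mme (-1.11 ± 0.32). Also among them were Cma1 (-2.38 ± 0.49) and Cpa3 (-2.20 ± 0.67), proteases of mast cells with few counts. Cma1 had 14, 22 and 43 counts in bleomycin and 108, 179 and 134 in control libraries. Cpa3 had 8, 42 and 7 counts in bleomycin and 90, 115 and 63 in control libraries. Of 3 tested mast cell markers, 1 was called lower in bleomycin than in control lungs, Kit, which other cells express too (86.2 CPM in bleomycin and 203 CPM in control lungs on average). Mcpt4, a mast cell protease, averaged 0.835 CPM in bleomycin and 0.987 CPM in control lungs (log2 -0.24) and was not called. Tpsb2, the third marker, was lower at log2 -1.58 and also not called (adjusted p = 0.216). The part of mast cells in these changes was not tested. Leaving out 1 library kept the Mme call in 4 of 9 fits and the Cpa3 call in 5 of 9. Mme missed without control replicate 1 (adjusted p = 0.0988) or 3 (0.0699) or bleomycin replicate 1 (0.0660), 2 (0.0796) or 3 (0.0720), and Cpa3 without control replicate 1 (0.0760) or 2 (0.0820) or bleomycin replicate 1 (0.0991) or 3 (0.0774). The list's median log2 change was -1.25, beside -0.05 over all genes.

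Of the endothelin list, Edn3, a ligand that favours the other receptor, was lower in bleomycin than in control lungs at log2 -2.47 ± 0.40, and that receptor, Ednrb, at -2.17 ± 0.34. Edn3 had 17.3, 17.5 and 4.98 CPM in LNP, 4.47, 5.06 and 6.11 CPM in bleomycin, and 30.0, 30.1 and 26.4 CPM in control libraries. Ednrb had 33.9, 31.9 and 12.2 CPM in LNP, 27.2, 19.5 and 18.3 CPM in bleomycin, and 101, 92.2 and 98.6 CPM in control libraries, and was also called lower in LNP than in control lungs (log2 -1.90 ± 0.33, adjusted p = 0.00828). Edn1 and Edn3 therefore changed in opposite directions in bleomycin lungs. Ednra gave no call where Ednrb fell, and the difference between the 2 receptors was not tested.

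Within the nitric oxide list, the guanylate cyclase subunits Gucy1a1 (log2 -1.71 ± 0.26) and Gucy1b1 (-1.06 ± 0.17) and the cyclic GMP phosphodiesterase Pde5a (-2.09 ± 0.39) were lower in bleomycin than in control lungs, opposite in sign to Nos3. Higher were the arginases Arg1 (6.81 ± 1.07) and Arg2 (1.12 ± 0.20), which use the synthases' substrate, Gch1 (1.18 ± 0.24), the first enzyme of their cofactor's synthesis, and the arginine carrier Slc7a1 (1.35 ± 0.25). Arg1 had 7.73, 14.1 and 126 CPM in LNP, 219, 153 and 97.1 CPM in bleomycin, and 1.60, 1.44 and 1.16 CPM in control libraries. LNP replicate 3 was within the bleomycin range for Arg1 and the other LNP libraries lay between the groups. The 15 pathway calls of this comparison had adjusted p-values under the threshold of 0.05, at most 0.0299, with Cpa3 the highest.

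**Figure D4:**
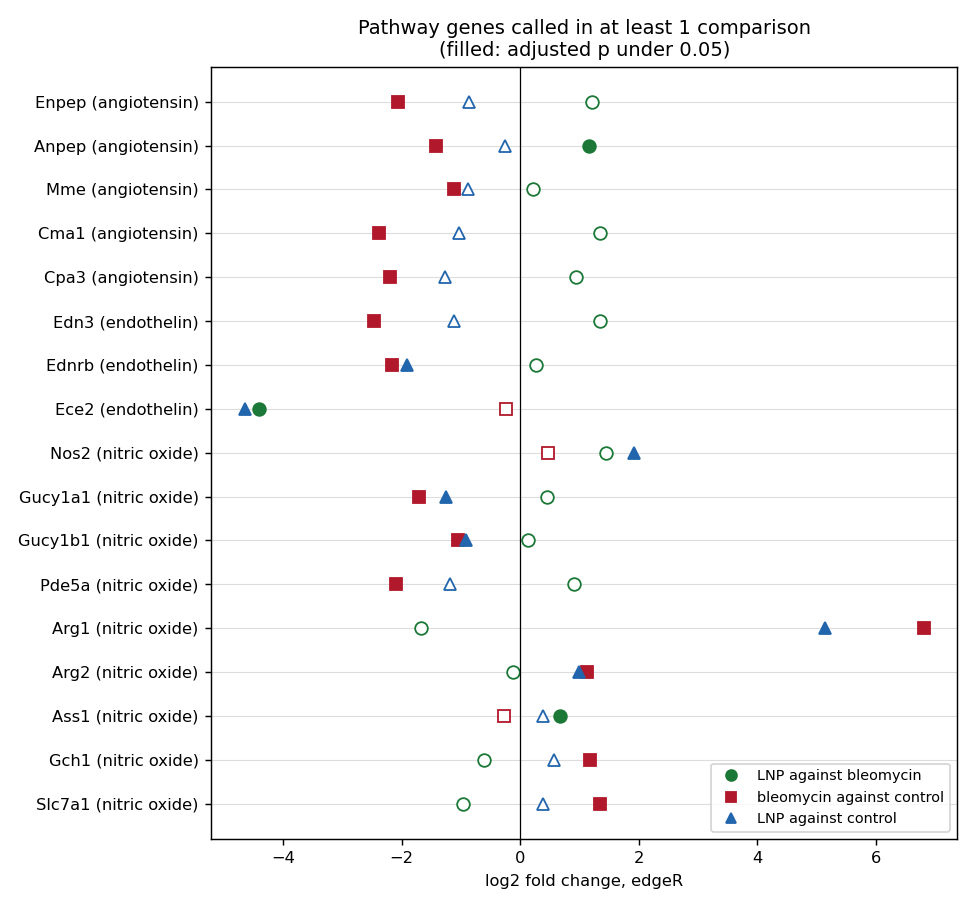
Log2 fold changes (edgeR) of pathway genes called in at least 1 comparison, for LNP against bleomycin, bleomycin against control and LNP against control lungs; filled points passed an adjusted p of 0.05. Arg1 lies highest for bleomycin against control, at 6.81, and the angiotensin peptidases and Edn3, Ednrb, Gucy1a1, Gucy1b1 and Pde5a lie below 0 in that comparison.

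In LNP against bleomycin lungs 2 pathway genes were called higher and 1 lower, which is 3 of 36 where 6.16% of all genes were called. Anpep, an aminopeptidase, rose by log2 1.16 ± 0.22 (adjusted p = 0.0204) and Ass1, which regenerates arginine, by 0.67 ± 0.12 (adjusted p = 0.0172). Ece2, a second converting enzyme, was lower at a fitted -4.40 ± 0.97, from 3, 0 and 1 counts in LNP 10, 24 and 58 counts in bleomycin and 29, 26 and 56 counts in control libraries (adjusted p = 0.0310). Ece2 passed in 6 of 15 alternatives (adjusted p 0.000656 to 0.258) and missed without control replicate 1 (0.0609) or 3 (0.0598), bleomycin replicate 1 (0.0548), 2 (0.0903) or 3 (0.0791), and LNP replicate 1 (0.0669) or 2 (0.0883). Without bleomycin replicate 1 or 2 or LNP replicate 1 or 2, the adjusted p of Anpep was 0.0946, 0.0900, 0.0701 or 0.0667 and that of Ass1 0.0753, 0.0905, 0.0554 or 0.0641. The total was 0 without bleomycin replicate 1 or 2 or LNP replicate 1 or 2, 4 without control replicate 2 and 14 without LNP replicate 3.

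In LNP against control lungs 3 pathway genes were called higher and 5 lower, which is 8 of 36 where 8.04% of all genes were called. Among them Ednrb, Ece2 (log2 -4.64 ± 0.98), Gucy1a1 (-1.25 ± 0.26) and Gucy1b1 (-0.92 ± 0.17) were lower, and Arg1 (5.14 ± 1.00), Arg2 (0.99 ± 0.20) and the inducible synthase Nos2 (1.92 ± 0.48) higher. Nos2 passed in 4 of 18 alternatives (adjusted p 3.79e-05 to 0.190) and in 1 of the 9 fits that left out a library, the one without LNP replicate 3. Without control replicate 1, 2 or 3 its adjusted p was 0.137, 0.0892 or 0.126, without bleomycin replicate 1, 2 or 3 it was 0.0580, 0.0679 or 0.0594, and without LNP replicate 1 or 2 it was 0.0858 or 0.104. Arg1 missed without control replicate 1, 2 or 3 (0.0662, 0.0544 and 0.0692), and Ece2 without control replicate 1 or 3 or LNP replicate 2 (0.0558, 0.0725 and 0.0503). Gucy1a1 missed without control replicate 1 or 3 (0.0733 and 0.0585), Gucy1b1 without control replicate 1 (0.0508) and Arg2 without control replicate 1 (0.0722). The total was 1 without control replicate 1, 3 without control replicate 3, 5 without LNP replicate 2 and 11 without LNP replicate 3. Nos2 had 35.5, 37.0 and 7.30 CPM in LNP, 8.91, 9.19 and 11.3 CPM in bleomycin, and 6.56, 7.55 and 6.98 CPM in control libraries. Its raised level was that of 2 LNP libraries, with LNP replicate 3 inside the range of the others. The neuronal synthase Nos1 had 27.0 CPM in LNP replicate 3, the library with the high Acta1, and at most 0.434 CPM in any other library.

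Within a library, members were set against the partner gene of opposing or alternative role, as FPKM ratios with no test, since the pairs were chosen after their values were seen. Edn1 over Edn3 was 1.87, 2.11 and 11.4 in LNP, 27.0, 21.6 and 17.1 in bleomycin, and 1.71, 1.56 and 1.68 in control libraries. Ednra over Ednrb was 1.32, 1.49 and 4.38 in LNP, 1.46, 2.42 and 3.10 in bleomycin, and 0.601, 0.759 and 0.537 in control libraries. Both ratios were above every control library in all bleomycin libraries, and LNP replicate 3 again lay apart from the other LNP libraries. Nos3 over Nos2 was 1.29, 1.22 and 7.04 in LNP, 7.47, 6.90 and 6.04 in bleomycin, and 7.02, 6.73 and 6.46 in control libraries, so that 2 LNP libraries were set apart.

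**Figure D5:**
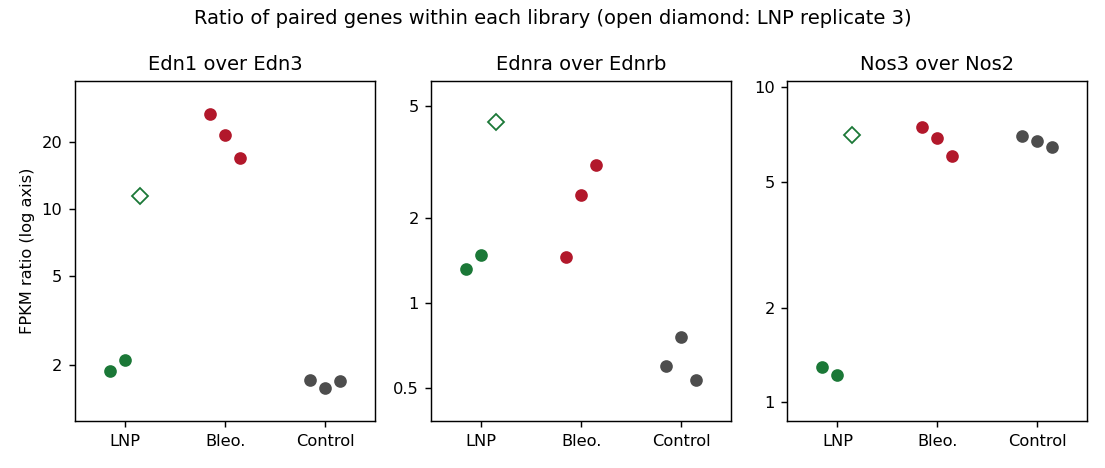
FPKM ratios within each library, on log axes, of Edn1 over Edn3, Ednra over Ednrb and Nos3 over Nos2, in LNP, bleomycin and control libraries; the open diamond is LNP replicate 3. Edn1 over Edn3 is 17.1 to 27.0 in bleomycin and 1.56 to 1.71 in control libraries, and Nos3 over Nos2 is low only in LNP replicates 1 and 2.

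The genes whose log2 CPM followed each member most closely over the 9 libraries were taken as the 3 highest Pearson correlations among 11868 genes with a mean of at least 5 CPM. They were Atf6, F2r and Ndel1 for Edn1 (r = 0.987 to 0.980), Ifitm6, Palld and Nde1 for Ace (0.982 to 0.938), Pramel12, Ryk and Ankrd50 for Ece1 (0.974 to 0.965) and Plpp5, Heyl and Btg2 for Nos3 (0.980 to 0.976). For Ednra they were Itfg2, Hyal2 and Bcl9l (0.984 to 0.962), for Agtr1a Srrm2, Pik3c3 and Arel1 (0.955 to 0.935) and for Agt Depp1, Serpina3c and Dkk3 (0.959 to 0.957). The points share library, depth and group, so these are descriptions only.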

How the data were processed

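Per the labels' protocols, whole-lung poly(A) RNA went into paired-end libraries with dUTP strand marking, 3 in each of 3 groups at day 21. Tools listed in the submitters' processing notes are StringTie, edgeR and fastp. Aligner, genome build and strand use in counting: not given in the sources used here. Overlapping and near-identical genes are uncertain. Opposite Nos3 lie Atg9b (56 to 237 counts) and Gm15587 (4 to 83), and on the strand of Agtr1a lies Gm48161 (33 to 104). Per the file headers, the deposited tables hold whole-number counts for 32671 genes and 149138 transcripts and FPKM values per gene scaled by the authors. Gene counts summed to 56047830 to 69404903 per library. Replicate libraries differed by more than sampling noise (chi-square divided by its degrees of freedom 30.2 or more).

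From the deposited counts, edgeR's quasi-likelihood test (edgeR 4.0.16, R 4.3.3) fitted all 9 libraries together, with TMM factors and filterByExpr, which kept 20794 genes. Calls needed an adjusted p under 0.05 (Benjamini-Hochberg over all tested genes). The SE of a log2 change was derived from that test, as its absolute value divided by the square root of the F statistic. The 95% interval was built from this SE, which is rough for genes with few counts. CPM uses TMM-scaled sizes. FPKM served for levels between genes, since it divides by length, and for limma alternatives on log2(FPKM + 1) and log2(FPKM + 0.1). Also tried were relative log expression scaling, library totals alone, DESeq2 1.42.0, no count filter, a replicate block, a fit of only the groups compared, and each library left out. limma was 3.58.1, and tables and plots used Python 3.11.15, pandas 2.3.3 and matplotlib 3.10.9. The scripts were tested on simulated counts. The floor given for Agtr2 covers counting error only, while the 95% intervals of log2 changes also carry the spread between libraries.

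The members and lists were chosen with earlier results of these data known. Named are all 8 members, every listed pathway gene called in at least 1 comparison, the 3 genes most like each member, and, chosen after their values were seen, Nos1, Agtr1b, Acta1, Krt4, Sting1, the named cell type markers and the genes that failed the count filter. A gene that this rule selects is not reported here, though counts include it. Promoter windows come from RefSeq on GRCm38.p6. Coordinates of the deposited gene table do not match that build and are not printed.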

Additional observations from a re-analysis of the deposited data

How the results depend on the processing

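With 3 libraries a group, the LNP against bleomycin counts moved most. Called members there numbered 3 and fell to 1 under library totals alone, no count filter, only the groups compared, the replicate block and each of the 3 limma settings. Called pathway genes were 7 under DESeq2 and 1 under only the groups compared, the replicate block and limma without a filter, and all called genes were 3011 under DESeq2, 794 with no count filter, 318 with only the groups compared, 432 under the replicate block and 539 under limma without a filter. In LNP against control lungs called members were 0 with only the groups compared, called pathway genes 5 under limma without a filter, and all called genes 2938 under DESeq2 and 1010 with only the groups compared. Leaving out 1 library gave 1 to 4, 2 to 3 and 0 to 2 called members, 0 to 14, 13 to 21 and 1 to 11 called pathway genes, and 102 to 5284, 4375 to 9102 and 717 to 2332 called genes for LNP against bleomycin, bleomycin against control and LNP against control. The highest values of LNP against bleomycin came without LNP replicate 3. Deviations of same-numbered replicates correlated at -0.0176 to 0.0400 over 9 pairs, and those of unlike numbers at -0.0737 to 0.0787. The labels do not say what a replicate number marks, and such correlations cannot show that no day or batch was shared. The cause of the differences between settings was not tested.

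Among the changes of members and the called changes of pathway genes, only member changes short of the threshold turned sign. Pathway gene changes that were not called turned too in some fits. Anpep in LNP against control lungs was -0.26, and 0.017 without LNP replicate 3. Mme in LNP against bleomycin lungs ranged over -0.071 to 0.49 with a library left out. Agt in LNP against control lungs was -0.34 under the replicate block, -0.0228 under log2(FPKM + 1) with and without a filter, -0.23 under log2(FPKM + 0.1) and -1.16 to 0.49 with a library left out, the lowest without LNP replicate 3. Agtr1a in LNP against bleomycin lungs ranged over -0.63 to 0.18 with a library left out, above 0 without bleomycin replicate 3. Ednra there ranged over -0.10 to 0.16, below 0 without bleomycin replicate 1 or LNP replicate 3. Nos3 in LNP against control lungs ranged over -0.028 to 0.060, below 0 without control replicate 1 or 3 or LNP replicate 3. Library totals alone moved the median LNP against bleomycin change of all genes by 0.12 and the share of calls that were higher to 83.5%, against 69.6%.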
